A study of Saccharomyces cerevisiae with 4 samples.

Results

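The genes described here are the 10 Hsp70 and Hsp90 chaperone genes SSA1, SSA2, SSA3, SSA4, SSB1, SSB2, SSE1, KAR2, HSC82 and HSP82 of budding yeast, taken by symbol from the 6477 genes of the RefSeq table of the R64 assembly. They were examined for peaks of an immunoprecipitation with the FLAG M2 antibody in the region from 500 bp upstream of the start of the coding sequence to its annotated end. The immunoprecipitate and the input of a strain carrying Acs2-FLAG, a tagged acetyl-CoA synthetase, were set beside the immunoprecipitate and the input of an untagged strain, with 1 library in each of the 4 groups. Both strains grew in rich medium with 2% glucose at 28 °C and were crosslinked with 1% formaldehyde, per the labels, and no heat treatment is named. The label says neither where the tag sits nor how many clones were used. With no replicates, no value below has an error between cultures, and no test between strains or between genes was possible.

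Hsp70 proteins bind exposed hydrophobic stretches of unfolded proteins in a cycle of ATP binding and hydrolysis, helped by J proteins, which stimulate hydrolysis, and by nucleotide exchange factors, which release ADP. Hsp90 acts later on partly folded clients such as kinases and receptors. Yeast has several copies of each in the cytosol, some made during ordinary growth and some raised strongly by heat shock. The heat shock factor Hsf1 drives transcription in that response. Expression in these cultures was not measured, so the classes below do not say which genes were silent. SSA1, SSA2, SSB1, SSB2, SSE1, KAR2 and HSC82 are treated here as constitutive genes, although SSA1, SSE1 and KAR2 are also raised by heat, and SSA3, SSA4 and HSP82 as heat-induced genes.

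The deposited lists held 912 peaks for the Acs2-FLAG immunoprecipitate and 34 for the untagged one. Each peak carries the authors' fold enrichment at its summit, which is the base with the strongest signal in the peak. The background solved from the deposited values had its lowest value at 291.1 fragments per base in the Acs2-FLAG library and 198.4 in the untagged library. At these backgrounds, a fold of 1.16 in the Acs2-FLAG library and of 1.26 in the untagged library would reach the weakest p of its list. Where the local background was higher, smaller folds were called, down to 1.15 in the Acs2-FLAG list and 1.03 in the untagged list. The 95% intervals in parentheses below are exact Poisson intervals of the fragment count and cover counting error of the immunoprecipitate only.

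An Acs2-FLAG peak met 7 of the 10 genes, SSA1, SSA2, SSB1, SSB2, KAR2, HSC82 and HSP82. SSE1, SSA3 and SSA4 had none. Over all 6002 nuclear protein-coding genes, 20.6% met an Acs2-FLAG peak by the same rule, and of the 2248 genes at least 1500 bp long 15.9% did. No base of the 10 peaks was shared with an untagged peak, so the same 7 genes counted among unshared peaks, against 19.8% of nuclear protein-coding genes. An untagged peak met 0 of the 10 genes, where 0.533% of nuclear protein-coding genes met one. The untagged peaks were so few that a count of 0 among 10 genes does not set these genes apart from others.

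By class, 6 of 7 constitutive genes and 1 of 3 heat-induced genes met an Acs2-FLAG peak. If SSA1, SSE1 and KAR2 are counted with the heat-induced genes instead, the count there is 3 of 6, and 4 of the 4 remaining constitutive genes had a peak. The 6 constitutive genes with a peak include SSA1, whose peak had its summit in the neighbouring tRNA gene TRN1. With the summit required in the gene's own region, 5 of 7 constitutive and 1 of 3 heat-induced genes had a peak. Over nuclear protein-coding genes that share was 12.2%. The strongest fold at a gene had a median of 1.56 over the 6 constitutive genes with a peak. Over the 5 with such a summit it was 1.54, and at HSP82, the heat-induced gene with a peak, the fold was 1.35. Over the 7 genes with a peak the median was 1.54, against 1.64 over the 1238 nuclear protein-coding genes with a peak. The share of members with a peak was thus above that of genes at large, and the median fold of those with a peak was slightly below. The members were chosen with earlier results of these data known, so the higher share is a description and not a test. Both medians include peaks that reach in from a neighbouring gene. For peaks with the summit in the gene's own region, the median was 1.45 over 6 members and 1.48 over 733 nuclear protein-coding genes.

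**Figure D1:**
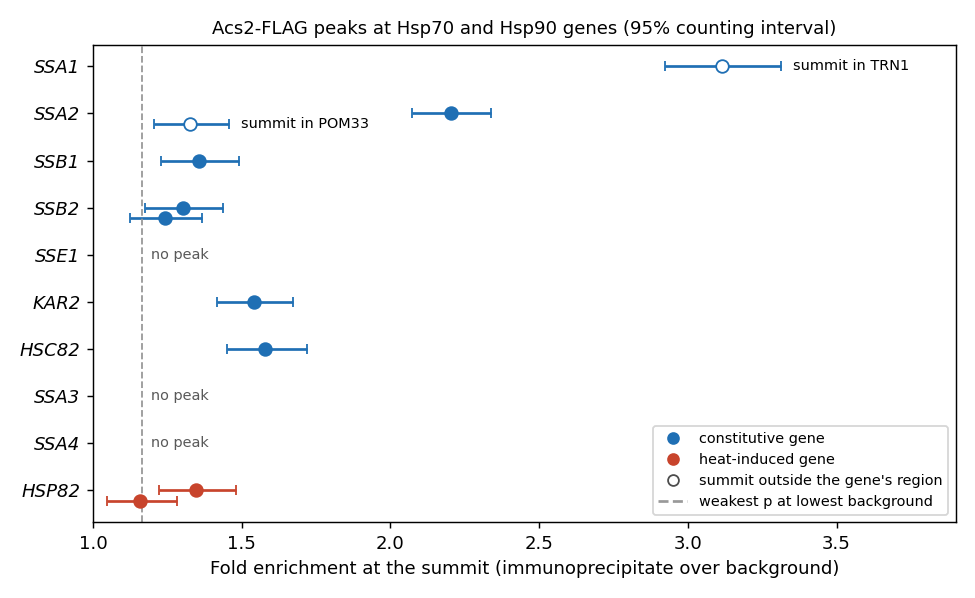
Authors' fold enrichment at the summit of every Acs2-FLAG peak at the 10 genes, with the 95% counting interval as bars; constitutive genes stand above heat-induced ones, open points mark summits outside the gene's region, and the dashed line is the fold of 1.16 that reaches the weakest p of the list at its lowest background. Only the peaks of SSA1 (3.11, summit in TRN1) and SSA2 (2.20) exceed 2, and SSE1, SSA3 and SSA4 have no peak.

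SSA1 to SSA4 encode the cytosolic Hsp70 proteins of the Ssa family. SSA1 (YAL005C, chromosome I, 139503 to 141431) met the peak with the highest fold of the set, 3.11 (2.92 to 3.31), from 988 fragments over a background of 316.6. That summit did not lie in SSA1. It lay in the tRNA gene TRN1 (chromosome I, 139152 to 139254), 311 bp beyond the 3′ end of SSA1. The fold therefore describes TRN1, and the list gives no separate value for SSA1. Among the 257 peaks with a summit in a tRNA gene, the median fold was 3.18, and 154 had a fold at least that of the TRN1 peak.

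The TRN1 peak was unusual for its width. It was 2617 bp wide (138941 to 141557), against a median of 510 bp and an upper quartile of 564 bp over those 257 peaks, and no other of them was as wide. It ran from TRN1 across 100% of SSA1 to 126 bp upstream of the SSA1 start. SSA1 and TRN1 were thus called as 1 peak with 1 summit, and the height of the signal over SSA1 is not recorded in the list.

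SSA2 (YLL024C, chromosome XII, 95566 to 97485), the closest paralog of SSA1, had the strongest peak with its summit inside a member. The fold was 2.20 (2.07 to 2.34), from 1050 fragments over a background of 476.2. The peak was 2033 bp wide, covered 100% of the gene and had its summit 467 bp into the coding sequence. The nearest tRNA gene, YNCL0001W, was 4369 bp from the summit. The background of 476.2 was high for the list, where the median was 313.5 and 15 of 912 peaks had a background at least as high. In fragments above background, SSA2 had 573.8, below the 671.4 of the TRN1 peak and 2.90 times the 198.1 of HSC82. Such a count grows with the local background as well as with the fold, and the background at HSC82 was lower, at 340.9. A second peak, with its summit in the neighbouring nuclear pore gene POM33 and a fold of 1.33 (1.20 to 1.46), reached into the 500 bp upstream of SSA2 without touching its coding sequence.

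SSA3 (YBL075C, chromosome II, 84499 to 86448) and SSA4 (YER103W, chromosome V, 364589 to 366517), whose expression is mainly seen under stress, had no peak in either list. The Acs2-FLAG peak nearest to SSA3 began 1494 bp from its coding sequence and had its summit next to the small nucleolar RNA gene SNR56, with a fold of 2.05 (1.89 to 2.21). The peak nearest to SSA4 was 9339 bp away, at the tRNA gene YNCE0018W. Of the Ssa family, then, both constitutive genes lay wholly within a peak and both heat-induced genes lay outside. The local background at SSA3, SSA4 and SSE1 is not recorded, so no limit can be given for a weak signal there that was not called.

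SSB1 (YDL229W, chromosome IV, 44065 to 45906) and SSB2 (YNL209W, chromosome XIV, 252059 to 253900) encode the Hsp70 proteins that bind the ribosome and meet nascent chains. SSB1 had 1 peak with a fold of 1.35 (1.23 to 1.49), from 425 fragments over 313.5. It spanned base 780 to base 1835 of the gene, 57.3% of its length, with the summit at base 1183. SSB2 had 2 weaker peaks, of 1.30 (1.17 to 1.44) at base 1554 and 1.24 (1.12 to 1.37) at base 765, which together covered 41.2% of it. The intervals of the SSB1 and SSB2 folds overlapped. In neither gene did a peak reach the start of the coding sequence or the promoter.

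SSE1 (YPL106C, chromosome XVI, 350194 to 352275) encodes an Hsp110 protein, a relative of Hsp70 that serves as its nucleotide exchange factor. It was the constitutive gene without a peak, and the nearest Acs2-FLAG peak lay 9331 bp away, at CAR1. KAR2 (YJL034W, chromosome X, 381327 to 383375), the Hsp70 of the endoplasmic reticulum known as BiP in mammals, had a peak of 1.54 (1.42 to 1.67), from 563 fragments over 365.3. This peak was 2365 bp wide, covered 100% of the gene and had its summit at base 1152.

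HSC82 (YMR186W, chromosome XIII, 632355 to 634472) and HSP82 (YPL240C, chromosome XVI, 96496 to 98625) encode the cytosolic Hsp90 proteins. HSC82, the constitutive copy, had 1 peak of 1.58 (1.45 to 1.72), from 539 fragments over 340.9. The peak was 2421 bp wide, covered 100% of the gene and had its summit at base 446. HSP82, the heat-induced copy, had 2 peaks, of 1.35 (1.22 to 1.48) at base 2008, near the 3′ end, and of 1.16 (1.05 to 1.28) at base 595. They covered 69.0% of the gene. The second was among the weakest of the list, at rank 909 of 912 and with a deposited −log10 q of 1.44.

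The order of the folds with a summit in the gene was SSA2, HSC82, KAR2, SSB1, HSP82 and SSB2. The interval of SSA2 lay apart from that of HSC82, the next in order. Intervals of all other neighbours in this order overlapped, including HSC82 beside KAR2 and SSB1 beside HSP82. HSC82 and HSP82, the Hsp90 pair, had intervals that overlapped between 1.45 and 1.48. Overlap of intervals does not show that 2 folds are equal, and the difference between the copies was not tested. The coding sequences of SSA1 and SSA2, of SSB1 and SSB2, and of HSC82 and HSP82 are closely similar within each pair, and the sources used here do not say how reads matching both copies were placed. The values of each pair are therefore uncertain as values of a single copy.

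The members also differed in how much of the gene a peak covered. SSA1, SSA2, KAR2 and HSC82 lay entirely inside a peak, 4 of 7 constitutive genes, and 0 of 3 heat-induced genes did. Over all nuclear protein-coding genes, 4.78% had at least 90% of the coding sequence inside Acs2-FLAG peaks. The same 4 genes were those whose upstream 500 bp met a peak. Upstream of the start, the covering peaks reached 126 bp at SSA1, 34 bp at SSA2, 65 bp at KAR2 and 129 bp at HSC82. Most of each promoter lay outside them. At SSA2, the separate peak with its summit in POM33 also reached into the upstream 500 bp.

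**Figure D2:**
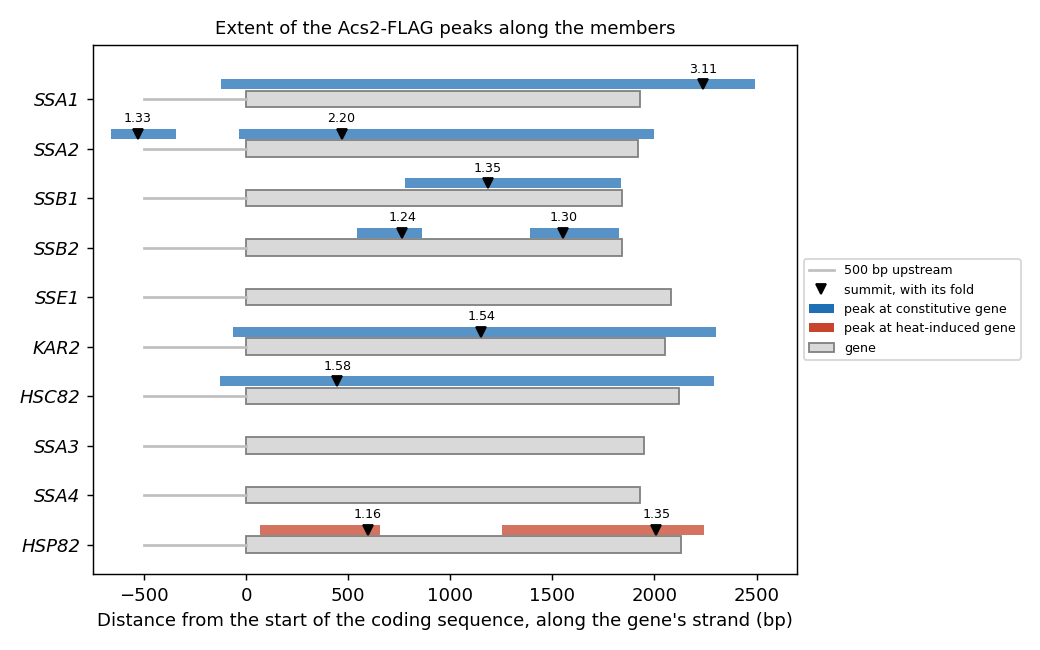
Extent of each Acs2-FLAG peak along the 10 genes, in bp from the start of the coding sequence along the gene's strand, with gene bodies in grey, peaks as coloured bars and summits as triangles with their fold. The peaks at SSA1, SSA2, KAR2 and HSC82 span the whole gene, and those at SSB1, SSB2 and HSP82 cover 57.3%, 41.2% and 69.0%. At HSP82, 27.7% comes from the peak of 1.16, among the weakest of the list. The SSA1 summit lies beyond the 3′ end, in TRN1.

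The summit lay in the region of its own gene for 6 of the 10 genes, against 12.2% of nuclear protein-coding genes. All 8 of these summits were within the coding sequence, and none was in a promoter. The first 50% of the gene held 4 of them, at SSA2, HSC82, SSB2 and HSP82. The remainder held 4, at KAR2, SSB1, SSB2 and HSP82. The HSP82 summit in the first 50% belongs to its peak of 1.16, at rank 909 in the list. Over the 468 summits in bodies of nuclear protein-coding genes at peaks away from tRNA, small nucleolar RNA and other RNA polymerase III genes, the median position was 59.6% of the way through the gene, and 38.9% lay in the first 50%. TRN1 was the only tRNA gene to hold a summit of a member's peak, and no small nucleolar RNA gene held one.

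**Figure D3:**
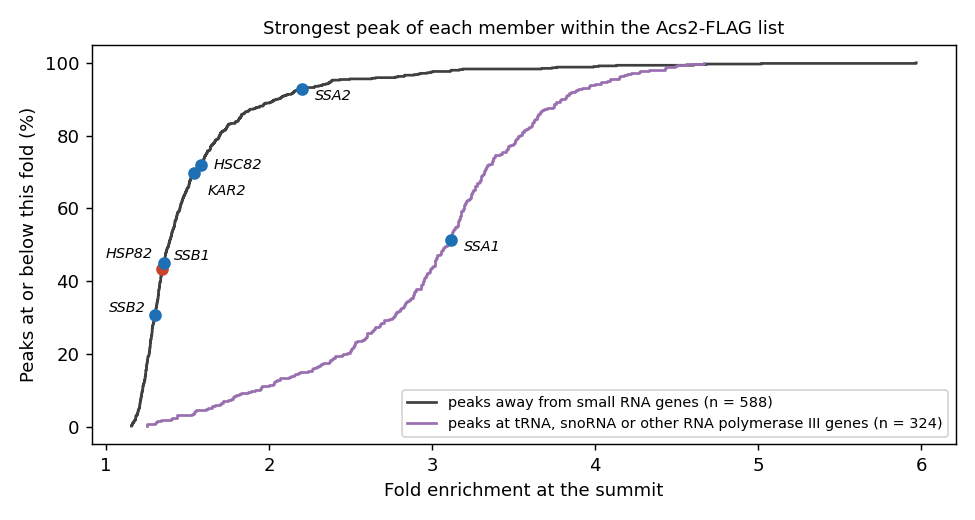
Cumulative share of Acs2-FLAG peaks by fold enrichment, for 588 peaks away from small RNA genes and 324 peaks at tRNA, small nucleolar RNA or other RNA polymerase III genes, with the strongest peak of each member marked (constitutive genes blue, HSP82 red). SSA2 sits in the upper tail of the first curve, and the SSA1 peak, at TRN1, sits near the middle of the second.

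Within the list, peaks at small RNA genes had a median fold of 3.09 and the 588 other peaks a median of 1.38. SSA2 was one of 43 of the 588 with a fold of 2.20 or more. HSC82 and KAR2 were also above that median of 1.38, while SSB1, HSP82 and SSB2 were below it. Outside the ribosomal DNA, the weakest Acs2-FLAG peak that shared bases with an untagged peak had a fold of 2.07. Of the 55 peaks at or above that fold and away from small RNA genes, 18 were shared with the untagged list and 37, SSA2 among them, were not. KAR2, HSC82, SSB1, SSB2 and HSP82 had lower folds than 2.07, and no untagged value is recorded at any of them. Whether part of the signal at these genes is recovered without the tag was not tested.

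By the size of the fold in this 1 list, the genes most like SSA2 outside the chaperone lists were the small gene YCR024C-B at 2.21, BMH1, which encodes a 14-3-3 protein, at 2.19, and ARB1 and PHM8, which share a peak of 2.23. They differed from SSA2 by 0.023 or less, well inside its counting interval. The shared peak covered 6.11% of ARB1 and 0% of PHM8, while YCR024C-B, BMH1 and SSA2 each lay 100% inside a peak.

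Among 57 other genes of the chaperone network, 14 met an Acs2-FLAG peak and 0 an untagged one, where the shares over all nuclear protein-coding genes were 20.6% and 0.533% as given above. A count of 14 among 57 is near the first of these shares. The median fold of the 14 was 1.55. Of the other Hsp70 genes, SSC1, the mitochondrial matrix Hsp70, had a peak of 1.79 (1.65 to 1.94) over 100% of the gene, and the other 5, SSE2, SSZ1, SSQ1, ECM10 and LHS1, had none. Of 12 genes for J proteins, SIS1, a cytosolic partner of Ssa proteins, had a peak of 1.52 (1.39 to 1.65), and 0 of 4 genes for nucleotide exchange factors had one.

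Of 12 genes for Hsp90 cochaperones, 3 met a peak. Over nuclear protein-coding genes the share was 20.6%, so a count of 3 among 12 does not set these genes apart. SBA1, the yeast p23, met a peak of 3.16 (2.97 to 3.36) whose summit lay in the tRNA gene YNCK0008W, 409 bp from its coding sequence, and 0% of its own body was covered. STI1, which bridges Hsp70 and Hsp90, had 1.23 (1.11 to 1.35). HCH1 met a peak of 1.19 with its summit 23 bp beyond the coding sequence. Both values were near the lower end of the list. The cell wall protein gene HSP150 had 2.15, the disaggregase gene HSP104 1.60 (1.46 to 1.74) and the small heat shock protein gene HSP42 1.34, while HSP26, HSP12, HSP30, HSP31 and HSP78 had no peak. HSP60 of the mitochondrial chaperonin had 1.58 (1.44 to 1.72). CCT6 and CCT2 of the cytosolic chaperonin TRiC had 1.51 and 1.37, with no peak at its other 6 genes. The CCT6 summit lay 453 bp from its coding sequence, within its region.

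Among the regulators, HAC1, which encodes the transcription factor of the unfolded protein response that acts on KAR2, had a peak of 2.02 (1.86 to 2.19) over 100% of the gene. HSF1 met a peak of 1.64 with its summit 81 bp beyond the coding sequence, and MSN4 one of 1.33 with its summit 596 bp away. MSN2 and IRE1 had none.

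**Figure D4:**
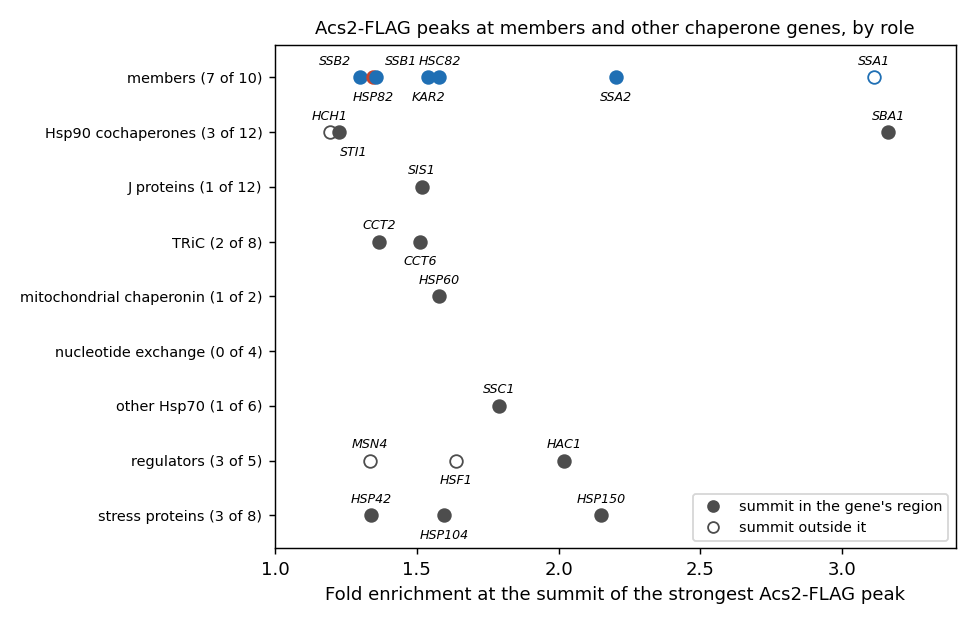
Fold enrichment at the summit of the strongest Acs2-FLAG peak for each member and each other gene of the chaperone network that met one. Genes are grouped by role, with the number of genes with a peak of all genes of that role. The other genes include regulators and HSP150, a cell wall protein gene. Members reach from 1.30 at SSB2 to 3.11 at SSA1, whose summit lies in the tRNA gene TRN1 outside its region. The highest fold with a summit in a member is 2.20 at SSA2. The other genes reach from 1.19 at HCH1 to 3.16 at SBA1, whose summit lies in a tRNA gene within its region.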

How the data were processed

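Per the submitters' processing notes, Trimmomatic, BWA, Picard and MACS2 were used with build R64; the sources used here give no settings and do not say how duplicates were handled. Per the file headers, each of the 2 deposited narrowPeak lists pairs 1 immunoprecipitate with its own input, so peaks were called per library; they were read as immunoprecipitate over input. The authors' values are the fold enrichment, a ratio at the summit, with a deposited −log10 p and −log10 q; the deposited score was not used.

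Coordinates were made 1-based and strands follow from systematic gene names. A peak met a gene with at least 1 bp in the region. With n fragments at a summit, MACS2 sets the fold to (n + 1)/(background + 1) and takes p from a Poisson tail. Solving both gave a fragment count whole within 0.05 at 907 of 912 Acs2-FLAG and 30 of 34 untagged peaks, and at all member peaks. The solving and overlap steps were tested on simulated data. Bases 450000 to 500000 of chromosome XII were treated as ribosomal DNA. The planned promoter motif search was not run, since no sequence was used here.

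Members and lists were chosen with earlier results of these data known. Genes named are the members, genes at or nearest their summits, and the 10 strongest other genes of the chaperone network. The 4 genes nearest in fold to SSA2 are also named. STI1, HCH1, MSN4, HSP42, the genes of the chaperone network without a peak and genes at flanking peaks were named after their values were seen. The scripts ran under Python 3.11.15 with pandas 2.3.3, matplotlib 3.10.9, scipy 1.17.1 and numpy 2.4.6.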

Additional observations from a re-analysis of the deposited data

How the results depend on the processing

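With 1 library a group, no sample could be left out. No paired analysis was possible because no test was run and each group holds 1 library. Of 49 alternatives, 38 kept the count within 1.5 times or the fold within its counting interval. Several of the 38 could not have differed. Narrowing a count of 0 untagged peaks leaves 0, and the unshared counts repeat those of all peaks. Apart from SSA1, each gene with a peak had its strongest summit in its own region, so that fold alternative gave the same value. The count of 38 is therefore no measure of how stable the results are. In the promoter alone, 4 members met a peak, 4 of them unshared, with a median fold of 1.89 and 0 heat-induced genes. The folds behind that median belong to summits outside the promoter, in SSA2, HSC82, KAR2 and TRN1. Among the stronger part of the list by fold, 2 members met a peak (2 unshared, 2 constitutive, 0 heat-induced, median fold 2.66), and 1 held its summit. With SSA1, SSE1 and KAR2 counted as heat-induced, 3 genes of that class met a peak. SSA1 has no value when the summit must lie in its own region. Without peaks at small RNA genes, 6 members met a peak. The promoter and stronger-list alternatives keep fewer peaks by construction. At the lowest background of each list, folds under 1.16 (Acs2-FLAG) and 1.26 (untagged) would not reach its weakest p; at higher backgrounds the limit is lower.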

Other observations

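Within 3000 bp of a member, outside its region, 7 further Acs2-FLAG peaks were listed. The one next to SSA1 had its summit in EFB1, the gene of the translation elongation factor subunit eEF1Bα that hosts the small nucleolar RNA gene SNR18, with a fold of 1.71 (1.58 to 1.84). Its edge lay 664 bp from SSA1, and its summit 432 bp from SNR18. Summits in the tRNA genes YNCL0001W, near SSA2, and YNCJ0015W, near KAR2, had folds of 3.79 (3.58 to 4.01) and 2.76 (2.58 to 2.95), with edges 2708 and 2704 bp from the member. The weaker ones were at SUI3 near HSP82 (1.20), at GCV2 near HSC82 (1.22) and at YNL208W near SSB2 (1.47). The remaining peak was the one at SNR56 near SSA3.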
